A study of Mus musculus with 11 samples.

Results

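The chromosome 8 defensin gene cluster region was examined in maps of huntingtin (HTT) binding in mouse striatum. Huntington's disease follows from an expansion of the glutamine tract of HTT, and the striatum is the part of the brain it damages most. The region was fixed as chr8 19000000 to 23000000 in mouse build mm9, and its members were the peaks whose summit lay there. It held 2204 of the 1298473 peaks in the 7 deposited HTT lists. The region had been chosen from these same lists because it contains a stretch dense in peaks that recur between libraries, so the density and the recurrence are given as descriptions without a test. It was set beside the 4 Mb on either side, which held 2022 peaks (15 to 19 Mb) and 2611 peaks (23 to 27 Mb).

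HTT ChIP-seq, the sequencing of DNA pulled down with an antibody against HTT, was done on the striatum of male mice of the B6 background, aged 4 months. The Q111/+ mice carried 1 knock-in Htt allele with an expanded CAG repeat, in every cell, and the wild-type (WT) mice were their littermates. There were 4 Q111/+ and 3 WT libraries, each with its own peak list, and the labels do not say whether each library came from a separate animal, so p-values measure only the spread between these libraries, and that spread may be technical. The list names begin with 1 of 2 prefixes, which no source explains: DB for Q111/+ replicates 1 and 2 and WT replicate 1, and JP for Q111/+ replicates 3 and 4 and WT replicates 2 and 3. The lists held between 88920 and 495334 peaks, and their sequencing depth is unknown. Shares were therefore taken from lists of equal length, which keep the 88920 peaks of highest −log10 p of each library.

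Defensins are small antimicrobial peptides held together by disulfide bridges. In mice the alpha-defensins are made mainly by the Paneth cells of the small intestine and the beta-defensins mainly by epithelia, and neither family is known as a marker of striatal neurons. The alpha-defensin genes arose by repeated local duplication, so many copies are nearly identical, and their number differs between mouse strains. Short reads from such copies are hard to assign to 1 place; whether this bears on the peaks was not tested.

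RefSeq lists 28 alpha-defensin (Defa) and 24 beta-defensin (Defb) symbols on chromosome 8, in a row of 124 genes from Defb40 to Defb13. The RefSeq table is of build GRCm38.p6, another build than that of the peaks, so no peak was placed on a gene and the label could not be checked gene by gene. The longest run without a defensin symbol lies between Defb7 and Defb33. It holds 32 genes, of which 22 are pseudogenes and 5 code for proteins (4930467E23Rik, 9530057J20Rik, Gm15319, Gm40469 and Gm21119).

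The promoter sequences show how alike a close pair of alpha-defensin copies is and how it differs from a beta-defensin of the same cluster. The 100 bases before the start of 3 genes are given 5′ to 3′ on the gene's own strand (minus for Defa38 and Defa42, plus for Defb3), from RefSeq, build GRCm38.p6, with the bases in capitals marking where Defa38 and Defa42 differ.
Defa38: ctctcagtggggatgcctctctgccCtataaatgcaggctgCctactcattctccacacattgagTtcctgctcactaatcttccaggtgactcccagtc
Defa42: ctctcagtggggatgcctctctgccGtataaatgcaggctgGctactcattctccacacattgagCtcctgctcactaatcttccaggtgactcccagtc
Defb3: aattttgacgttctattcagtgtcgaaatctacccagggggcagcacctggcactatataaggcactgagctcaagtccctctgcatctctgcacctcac

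Defa38 and Defa42 differed at 3 of these 100 bases. Of 16 alpha-defensin promoters in the table, 13 had another at least 90% identical to them over the whole promoter entry, and 10 shared all 100 bases before the start with another gene. Of 14 beta-defensin promoters none had another at 90% or more, and the closest pair reached 87.7%. The other 3 alpha-defensin promoters had no such partner, and over all pairs the median identity was 71.3% among alpha-defensins and 47.7% among beta-defensins. Many but not all of the alpha-defensin starts thus have a near copy in the table.

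The peaks were spread very unevenly within the region. From 20037841 to 22044319, a stretch of 2006479 bp, no library had a single peak in its full list. Why it holds none was not tested, so it is not read as a stretch without HTT binding. The longest other stretch without a peak in the region was 57564 bp, and the longest in the flanks were 26753 and 13230 bp. Just before that empty stretch lay a dense block of 360 kb, from 19680001 to 20040000. Its borders were set after seeing the data, as the 10 kb bins in which the local background of the peaks was at least 1.5 times the library's lowest value in 4 or more libraries. The rest of the region, 1635.681 kb without the empty stretch, lay on both sides. The region is therefore called dense only for the block. Whether the block lies on defensin genes could not be checked, as no peak was placed on a gene.

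**Figure D1:**
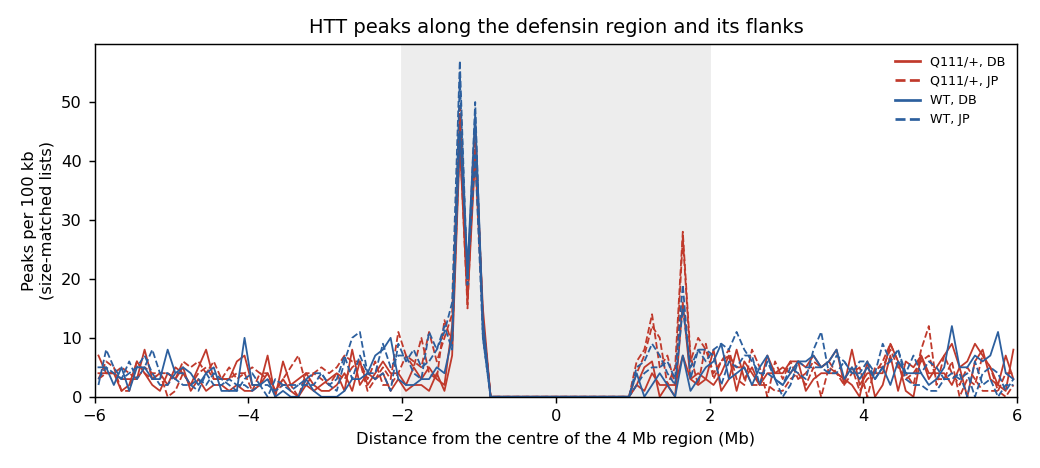
Peaks per 100 kb in the equal-length list of each library (vertical axis) against the distance from the centre of the 4 Mb region in Mb (horizontal axis), with the region shaded, genotypes in color and list prefixes by line type. All 7 lines rise together in the dense block, to between 43 and 57 peaks in its fullest window, and all stand at 0 along the empty stretch.

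The block held about the same number of peaks in every equal-length list. The counts were 133, 120, 123 and 134 in Q111/+ replicates 1 to 4 and 136, 144 and 129 in WT replicates 1 to 3. The genotypes overlapped. Peaks per Mb in the block were 9.28 ± 0.690 times those of the flanks in Q111/+ (SD, n = 4) and 9.28 ± 0.564 times in WT (SD, n = 3). The difference between the genotypes in this ratio was -0.001 on the log2 scale (two-sided exact permutation test, p = 0.971), and as a share of the list the block differed by -0.10 (exact permutation p = 0.2).

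Peaks covered between 9.67% and 15.6% of the block, against 0.649% to 1.13% of the flanks. Peaks in the block were also wide, with medians of 272, 232, 292 and 267.5 bp in the Q111/+ libraries and 314, 307.5 and 265 bp in the WT libraries. Flank medians were between 177 and 228 bp. In each library the block's median width was the larger of the pair, and the genotypes overlapped in the block (log2 difference -0.15, exact permutation p = 0.2).

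The number of fragments under each summit and the local background it was compared with could be recovered from the authors' fold and −log10 p. The recovery matched whole fragments for 100% of the chromosome 8 peaks in every library, within 0.02 in −log10 p. A median block peak rested on 14, 14, 18 and 17.5 fragments in the Q111/+ libraries and on 16, 16 and 17 in the WT libraries. A median flank peak rested on 4 or 5. These medians are from the full lists, as are the background medians and bins below. The block's peaks therefore had more fragments under them in all libraries, and they were also called against a higher background.

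The local background in the block was far above the lowest level in every library. Medians over the block's full-list peaks were taken as multiples of the library's lowest value. They were 4.57, 4.68, 5.14 and 4.90 in the Q111/+ libraries and 4.54, 5.13 and 4.79 in the WT libraries. That the block is raised follows from how its borders were set. The borders did not use genotype, but asking for 4 or more libraries favours bins that are alike between libraries. The likeness of the genotypes is therefore given as a description. The means were 4.82 ± 0.255 (SD, n = 4) and 4.82 ± 0.293 (SD, n = 3), a log2 difference of 0.001 (exact permutation p = 1). In the equal-length lists the means were 4.80 ± 0.292 in Q111/+ (SD, n = 4) and 4.81 ± 0.268 in WT (SD, n = 3).

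All 32 of the block's 10 kb bins that held a peak were raised in at least 4 libraries. Outside the block 0 of the region's 160 bins with a peak were raised. That follows from the borders, which run from the first to the last raised bin of the region. In the flanks, where no border was set, 2 of 791 bins (0.253%) were raised. The 2 flank bins had medians over libraries of 8.33 and 40.7 times the lowest background. They ranged from 1 to 9.71 and from 2.34 to 43.9 between libraries. Only the second had a median above that of the block's highest bin, at 13.8. None of the block's peaks sat at the library's lowest background, against 82.1% to 93.1% of the peaks in the rest of the region. This contrast is also shaped by how the borders were set. In the flanks 54.6% to 76.8% of the peaks sat there.

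Along the block the background rose and fell at similar places, with WT replicate 1 less like the rest. Over the 28 bins with a peak in each library, Spearman's rho between pairs of libraries was between 0.575 and 0.927 for the 12 pairs of different genotype and between 0.700 and 0.907 for the 9 pairs of the same genotype. The pairs with WT replicate 1 lay between 0.575 and 0.745, and all other pairs between 0.708 and 0.927. These are descriptions across neighbouring bins of one stretch, which are not independent. The highest bin, 19920001 to 19930000, had a median over libraries of 13.8 times the lowest background, with libraries between 11.1 and 15.6. Why the background is raised there was not tested, and the input libraries, which would show it without the antibody, were not analysed here.

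**Figure D2:**
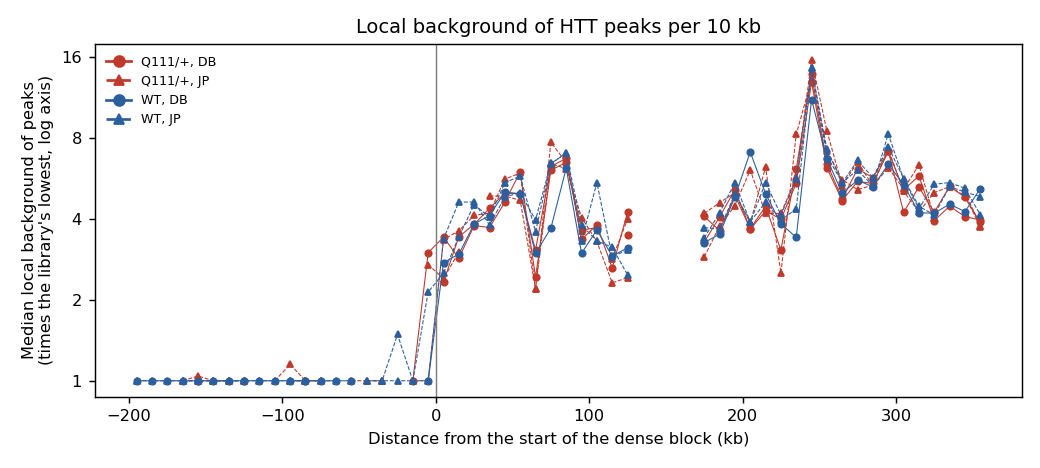
Median local background of the peaks in each 10 kb bin, as a multiple of the library's lowest background (vertical axis, log scale), against the distance from the start of the dense block in kb (horizontal axis), with 1 line per library and gaps where a bin holds no peak. The lines lie near 1 before the block and rise together inside it, with the highest bin at a median of 13.8.

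Recurrence between libraries was concentrated in the block. Overlapping equal-length peaks of the 7 libraries were merged into regions, 824 in the 4 Mb, of which 278 lay in the block, 546 in the rest and 1982 in the flanks. Across the genome 1.16% of 536351 merged regions were called in 4 or more libraries. In the block 95 of 278 were (34.2%), in the rest of the region 12 of 546 (2.2%) and in the flanks 9 of 1982 (0.454%). Counting only peaks that overlap a region by 50% both ways lowered the region's 107 such regions to 24. Because recurrence chose the region, nothing is read from these shares beyond where in the 4 Mb they lie.

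The other thresholds gave the same order. Regions called in 2 or more libraries made up 65.1% of the block, 13.7% of the rest and 9.33% of the flanks, against 9.91% in the genome. Regions called in all 7 libraries numbered 21 in the block (7.55%), 1 in the rest (0.183%) and 1 in the flanks (0.0505%), against 0.205% in the genome. Neighbouring recurrent regions of the block, counted at 4 or more libraries, lay a median of 1244 bp apart, with distances from 98 to 53438 bp.

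**Figure D3:**
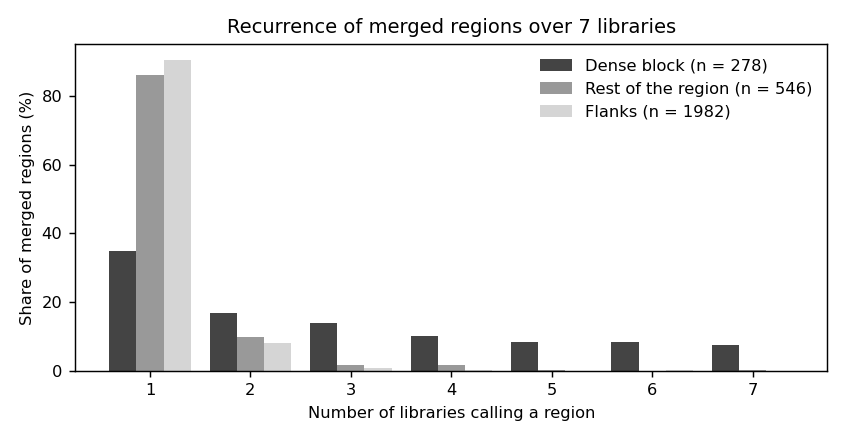
Share of merged regions in percent (vertical axis) by the number of libraries that called them (horizontal axis), for the dense block, the rest of the region and the flanks. In the block 34.9% of regions were called by 1 library, against 86.3% in the rest and 90.7% in the flanks, and 7.55% were called by all 7.

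The 100 kb windows with the most recurrent regions were 19700001 to 19800000 and 19900001 to 20000000, with 34 each, and 19800001 to 19900000, with 15. In the window from 19700001 the equal-length counts were 48, 43, 44 and 49 in the Q111/+ libraries and 45, 57 and 54 in the WT libraries. In the window from 19900001 they were 42, 41, 46 and 46 in the Q111/+ libraries and 48, 50 and 41 in the WT libraries. The genotypes overlapped in both. The middle window was lower in every library, with 15 to 22 peaks.

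The strongest region of the block was chr8:19924046-19927150, which was also its widest at 3105 bp. It lies in the bin of highest background. The authors' fold enrichment there was 4.14, 3.02, 2.85 and 3.30 in the Q111/+ libraries and 5.45, 5.99 and 6.96 in the WT libraries, so every WT value was above every Q111/+ value. The summit held 166, 119, 165 and 162 fragments in Q111/+ and 221, 188 and 250 in WT. Its local background was 29.7, 30.2, 34.9 and 31.0 times the lowest in Q111/+ and 35.4, 25.8 and 24.8 times in WT, where the genotypes overlapped.

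The second was chr8:19759555-19760301, a region of 747 bp. Fold was 5.78, 3.95, 2.58 and 2.90 in the Q111/+ libraries and 9.31, 6.0 and 6.90 in the WT libraries. The groups did not overlap, but the DB library of Q111/+ replicate 1 lay just below the lowest WT library. The summits held 104, 68, 68 and 72 fragments in Q111/+ and 142, 102 and 146 in WT, and these overlapped.

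The other named regions called in all 7 libraries were lower. They were chr8:19928569-19929748, chr8:19762088-19763532, chr8:19945728-19946816, chr8:19962718-19964943, chr8:19723413-19725997 and chr8:19942717-19945334. Their mean fold was between 2.23 and 2.62 in Q111/+ and between 2.71 and 3.5 in WT. The last of these, at 2618 bp, and the one before it, at 2585 bp, were the widest regions after the strongest.

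Outside the block only 1 region was called in all 7 libraries, chr8:22086566-22087778, beyond the empty stretch. Its fold was 4.03, 4.16, 3.85 and 2.73 in the Q111/+ libraries and 7.02, 6.07 and 5.50 in the WT libraries, without overlap. It rested on 6, 6, 7 and 6 fragments in Q111/+ and on 9 in each WT library, and its background was within 1.30 times the lowest in every library. Its fold is thus like that of the strongest block region while its fragments are a small part of that region's.

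**Figure D4:**
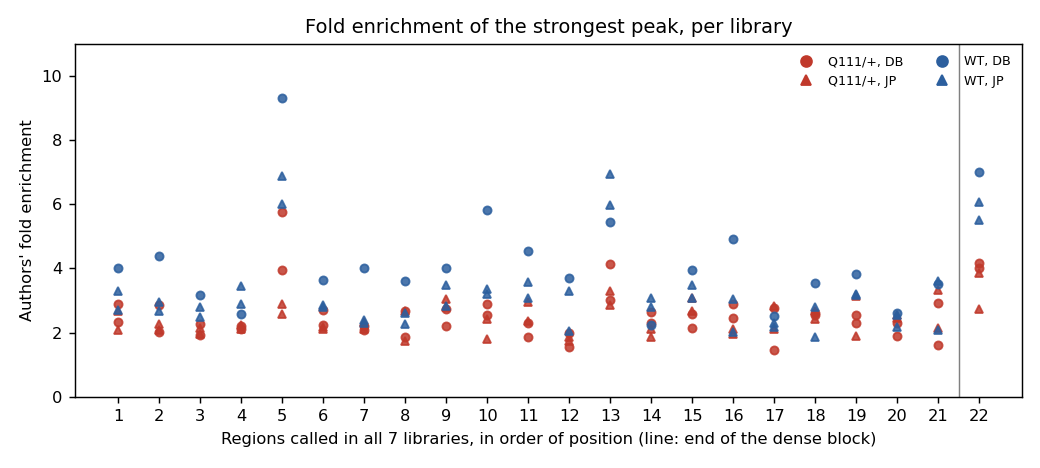
The authors' fold enrichment (vertical axis) of each library's strongest peak in the 22 regions called in all 7 libraries, in order of position (horizontal axis), with genotypes in color and list prefixes by marker, and a line at the end of the block. In 10 of the 22 regions every WT library is above every Q111/+ library.

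Fold in the recurrent regions was higher in WT, as it was elsewhere in the genome. In 10 of the 22 regions called in all 7 libraries every WT library was above every Q111/+ library, and in none was the reverse true. Over all 1097 such regions of the genome the shares were 31.5% and 0.182%. All these regions come from the equal-length lists, which were cut at a higher −log10 p in WT, as given below. The median over the 22 regions was 2.36 for the Q111/+ means and 3.22 for the WT means. The local background of a region differed between its highest and lowest library by a median of 1.43 times.

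Over all peaks of the region the median fold in the equal-length lists was 2.63, 2.34, 2.78 and 2.86 in the Q111/+ libraries and 3.57, 3.29 and 3.12 in the WT libraries. The groups did not overlap. The log2 difference was -0.33 (two-sided exact permutation p = 0.0286, the smallest this design allows, and 0.2 after Benjamini-Hochberg adjustment over 7 tests). Within the list prefixes it was -0.35 (exact permutation p = 0.0556, the smallest possible there). In the flanks the difference was of the same size, -0.34 (exact permutation p = 0.0286, adjusted 0.0929). In the full lists it was -0.22 in the region (exact permutation p = 0.0286) and 0.004 in the flanks (exact permutation p = 0.971). Matching cut the lists at unlike levels. The lowest −log10 p kept was 4.83, 3.00, 3.18 and 3.51 in Q111/+ replicates 1 to 4. In WT replicates 1 to 3 it was 11.6, 6.98 and 5.72. How far these cuts set the difference in fold was not tested.

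Within the block the medians were 2.29, 2.13, 2.09 and 2.16 in the Q111/+ libraries and 3.21, 2.60 and 2.52 in the WT libraries, a log2 difference of -0.35 (exact permutation p = 0.0286, adjusted 0.0929 over 26 comparisons of parts of the region, added after seeing the data). Taken relative to the flanks of the same library the difference was -0.01 (exact permutation p = 0.857). The full lists gave another value for this: there the block differed by -0.27 and the flanks by 0.004, and the block relative to the flanks by -0.28, without overlap of the genotypes (exact permutation p = 0.0286, adjusted 0.0929). Fold against the flanks therefore depended on whether list length was matched, and WT lists are cut the more by matching.

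Before list lengths were matched, more peaks were called in the region in WT. The full lists held 225, 159, 285 and 304 member peaks in the Q111/+ libraries and 436, 490 and 305 in the WT libraries. Every WT library was above every Q111/+ library, although Q111/+ replicate 4 and WT replicate 3 differed by 1 peak. The WT libraries were 1.71-fold higher (log2 difference -0.77, exact permutation p = 0.0571, adjusted 0.2 over 7 tests), and within the list prefixes the difference was -0.80 (exact permutation p = 0.0556).

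The block and the flanks differed in this respect. The block's full-list counts were 147, 120, 125 and 138 in Q111/+ and 177, 170 and 152 in WT. The level was 1.26-fold higher in WT (exact permutation p = 0.0571, adjusted 0.165 over 26 comparisons). In the flanks the counts were 406, 262, 370 and 394 in Q111/+ and 1781, 919 and 501 in WT. There WT was 2.65-fold higher (exact permutation p = 0.0286, adjusted 0.0929). The ratio of block to flank density was therefore higher in Q111/+, at 8.05, 10.2, 7.51 and 7.78 against 2.21, 4.11 and 6.74 in WT. These did not overlap (log2 difference 1.08, exact permutation p = 0.0286, adjusted 0.0929), and the difference within the list prefixes was 1.29 (exact permutation p = 0.0556). In the equal-length lists this difference was -0.001, as given above.

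With list length set aside, neither the region's share nor its density showed a genotype difference. The region took 0.223%, 0.179%, 0.295% and 0.307% of the equal-length Q111/+ lists and 0.208%, 0.296% and 0.271% of the WT lists. The genotypes overlapped widely. The log2 difference in share was -0.06 (exact permutation p = 0.857, adjusted 0.914), and that of the density ratio to the flanks was 0.03 (exact permutation p = 0.914, adjusted 0.914). Within the list prefixes these differences were 0.013 (exact permutation p = 0.944) and 0.11 (exact permutation p = 0.111). Median peak width differed by -0.20 (exact permutation p = 0.2, adjusted 0.35). The median local background of the region over that of the flanks, in the full lists, differed by 0.79 (exact permutation p = 0.314, adjusted 0.44), a value that mixes block and other peaks in proportions that vary between lists.

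A stricter limit used only the recovered fragments, before the scaling applied by the peak caller, and kept peaks with a Poisson p of at most 0.001 for those fragments. It was added after seeing the data. It left 51, 31, 48 and 55 block peaks in the Q111/+ libraries, and 80 and 81 in WT replicates 2 and 3, with more still in WT replicate 1. The groups did not overlap, and WT was 1.98-fold higher (log2 difference -0.99, exact permutation p = 0.0286, adjusted 0.0929), and within the list prefixes the difference was -1.06 (exact permutation p = 0.0556). In the flanks this limit left 10 to 27 peaks in Q111/+ and 37 to 119 in WT, and the block relative to the flanks was higher in Q111/+ by 0.97 on the log2 scale, with the genotypes overlapping (exact permutation p = 0.171). Within the list prefixes this difference was 1.12 (exact permutation p = 0.0556, the smallest possible there).

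The list prefix, in contrast, separated the libraries in the region when list length was matched. As a share of the equal-length list, the 4 JP libraries lay between 0.271% and 0.307% and the 3 DB libraries between 0.179% and 0.223%. They did not overlap, and JP was 1.44-fold higher (log2 difference of DB to JP -0.53, exact permutation p = 0.0286).

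This difference came from outside the block. There the equal-length counts were 65, 39 and 49 in the DB libraries (Q111/+ replicates 1 and 2 and WT replicate 1) and 139, 139, 119 and 112 in the JP libraries (Q111/+ replicates 3 and 4 and WT replicates 2 and 3). The prefixes did not overlap, and JP was 2.54-fold higher (log2 difference -1.34, exact permutation p = 0.0286, adjusted 0.124 over 26 comparisons). In density this was 0.790 ± 0.114 times the flanks in DB (SD, n = 3) and 1.97 ± 0.262 times in JP (SD, n = 4).

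In the block the prefixes differed by -0.03 (exact permutation p = 0.714), and in the flanks by -0.03 (exact permutation p = 0.886). The test of the difference itself, block against the rest of the region, gave 1.31 on the log2 scale without overlap (exact permutation p = 0.0286, adjusted 0.124), and the rest of the region against the flanks gave -1.31 (exact permutation p = 0.0286, adjusted 0.124). JP libraries were higher both before the block, by 2.82-fold, and after the empty stretch, by 2.40-fold. Within the prefixes the genotypes did not differ detectably outside the block (log2 difference 0.15, exact permutation p = 0.611).

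**Figure D5:**
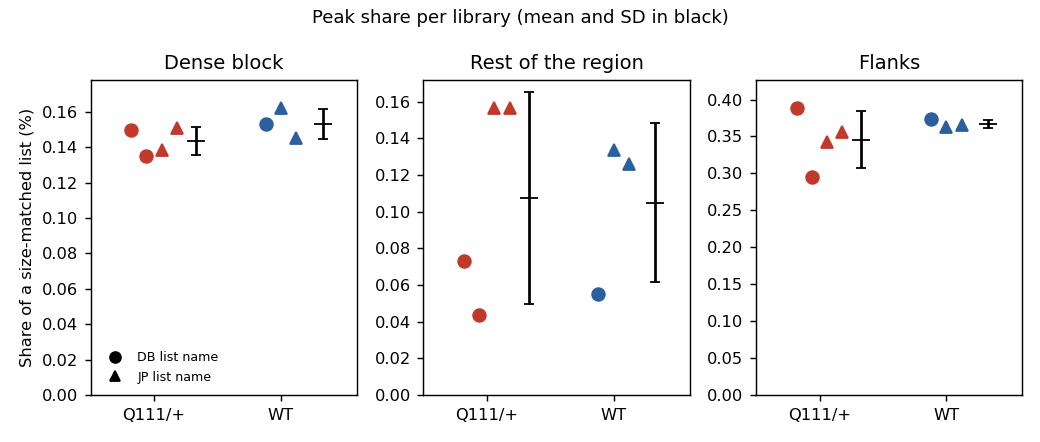
Share of the equal-length list in percent (vertical axis) per library, by genotype (horizontal axis), for the dense block, the rest of the region and the flanks, with circles for DB and triangles for JP list names and the mean and SD of each genotype in black. In the rest of the region the 3 DB libraries lie at 0.0439% to 0.0731% and the 4 JP libraries at 0.126% to 0.156%, and in the block and the flanks the prefixes overlap.

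The fullest window outside the block was 22600001 to 22700000, with 5 regions called in 4 or more libraries. Its equal-length counts were 16, 7 and 7 in the DB libraries and 27, 28, 15 and 19 in the JP libraries. The highest DB library, Q111/+ replicate 1, was above the lowest JP library, WT replicate 2. The peaks there were small, with medians of 4 to 6 fragments and a local background at the lowest level in each library.

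Per 100 kb window, 21 windows of the region had enough peaks to test, 3 with their centre in the block and 18 outside it. The genotypes overlapped in all 21, against 2.66% of 24382 windows of the genome in which they did not (1.27% with Q111/+ higher and 1.39% with WT higher). The lowest exact permutation p of the 21 windows was 0.0857 (adjusted 1 over all windows), and 0 had an unadjusted p under 0.05. The list prefixes did not overlap in 4 of the 21 windows (19%), all higher in JP and all outside the block. In the genome 14.4% of windows did so, 7.77% with DB higher and 6.6% with JP higher, and the lowest adjusted p in the region was 0.283.

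Regions called in 1 genotype alone were few. Called in all 3 WT libraries and no Q111/+ library were 3 of the 824 regions, against 0.0781% of the genome's. Of the 48 regions in the 4 Mb called in exactly 3 libraries, these 3 were the WT ones, against 6.75% of such regions in the genome. All 3 lay in the block, at chr8:19698386-19698972, chr8:19982709-19983255 and chr8:19862330-19862695, with mean fold in WT of 2.97, 2.33 and 3.10. The second also had a peak of fold 1.58 in the full list of Q111/+ replicate 1, and the other two had none in any full Q111/+ list.

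Called in all 4 Q111/+ libraries and no WT library was 1 region, chr8:20037475-20037840, against 0.0112% of the genome's regions. Of the 37 regions called in exactly 4 libraries it was the 1 with this pattern, against 2.48% in the genome. It held the last peaks before the empty stretch. Its fold was 2.16, 2.02, 1.97 and 1.75 in the Q111/+ libraries, on 11, 10, 13 and 11 fragments, and no full WT list had a peak there.

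Peak positions overlapped more between libraries in the block than elsewhere. Peaks also covered a larger part of the block, as given above, which by itself raises overlap. The overlap of randomly placed peaks was not computed, so the parts are not compared beyond these values. The base-pair Jaccard index, the length shared by 2 lists over the length covered by either, averaged 25.9% over the 21 pairs of libraries in the block, 3.75% in the rest of the region and 1.77% in the flanks. Over the whole region WT pairs were at 22.5% to 24.7%, Q111/+ pairs at 13.8% to 18.9% and pairs of different genotype at 13.6% to 22.0%. Pairs of the same genotype were higher than mixed pairs by 1.64 percentage points (one-sided exact permutation p = 0.0857, adjusted 0.2), and without WT replicate 1 the difference turned to -0.32. All WT pairs lay above all others, while Q111/+ pairs and mixed pairs overlapped.

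The borders of the region fell between ordinary peaks. The member nearest the start lay 2474 to 57073 bp inside it and the nearest peak before it 1080 to 17390 bp outside. At the end the distances were 1725 to 21414 bp inside and 263 to 26130 bp outside. Fold of these peaks was between 2.25 and 4.03 just inside the start and between 2.78 and 4.42 just outside it. At the end it was between 2.71 and 3.85 inside and between 2.34 and 3.42 outside.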

How the data were processed

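HTT ChIP-seq peak lists came from 4 Q111/+ and 3 WT striatal libraries. Input DNA, 2 libraries of each genotype, was not analysed here. Bowtie2 2.2.5, MACS2 2.1 and build mm9 are named, without role, in the submitters' processing notes, and the list names show peaks called at a p of 0.001. No source used here says whether peaks were called against input. The authors' fold column is the ratio of a peak's pileup to its local background. Peak significance was deposited as −log10 p-values and −log10 q-values. The deposited score column was not used, and the deposited summit offset placed each peak. Replicates were not pooled by the authors, per the list names. Depth is unknown, so no counting interval is given.

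Peaks off the 19 autosomes and the X and Y chromosomes were dropped, and coordinates are 1-based. Equal-length lists held the 88920 peaks of highest −log10 p, with ties ordered by fold and then at random (seed 11). Overlapping peaks (at least 1 bp) were merged into regions. Windows of 100 kb were tested where the equal-length lists held at least 7 peaks in all. Fragments were recovered from MACS's own formulas, in which fold is (pileup + 1) / (background + 1) and p is a Poisson tail, by searching per library for the scale that makes pileups whole multiples of 1 fragment. Over all scales searched, the median share of peaks that matched was 0% to 0.25%. Several fractions of a scale can match as well, so the largest scale with a match near the best was used. The fragment numbers rest on that choice. The lowest background was 1.14 to 1.65 fragments. The scripts were tested on simulated data.

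Groups were compared on the log2 scale by exact permutation over 35 splits, or over 18 within list prefixes, where the smallest p is 0.0556. P-values were adjusted by the Benjamini-Hochberg method. Same-numbered libraries were not treated as pairs. Over 2584 windows of 1 Mb their deviations from the group means correlated at 0.799, -0.713 and 0.574 for replicates 1 to 3. The libraries of replicate 1 were both DB and those of replicate 3 both JP, while replicate 2 joined DB and JP. The regions named were, among those called in all 7 libraries, the 8 whose lowest percentile rank of −log10 p was highest, up to 5 called in 1 genotype alone, the 3 widest, the 3 windows with most recurrent regions and the border peaks. The fullest window outside the block and the single recurrent region there were chosen after their values were seen. The region, its comparisons and this rule were chosen with earlier results of these data known. Alternatives were other list lengths, rankings, limits, borders, flanks and overlap rules, blocks for replicate and prefix, and each library left out. The tools were scipy 1.17.1, pandas 2.3.3, numpy 2.4.6 and, for drawing, matplotlib 3.10.9, in Python 3.11.15.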

Additional observations from a re-analysis of the deposited data

Results flagged for a closer look

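In the dense block the median number of fragments under a full-list peak went opposite ways in the prefixes. Among the DB libraries it was lower in Q111/+ than in WT (by 2, a difference of -2). Among the JP libraries it was higher in Q111/+ (by 1.25), with every library of each prefix on that side. The difference between the prefixes was not tested. Of the measures checked for a library far from the others, 27 in all, 1 stood out: peaks of Q111/+ replicate 2 covered 9.67% of the block, below the 12.7% to 13.0% of the other Q111/+ libraries. About 1 in 20 such checks would flag a library by chance.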

How the results depend on the processing

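Log2 differences are Q111/+ to WT unless named, and the cause of each change was not tested. For peak number, the limit of 2 on −log10 q gave -0.76, narrower borders -0.56 and the unscaled p -1.10, all with an exact permutation p of 0.0286. Leaving out 1 library gave -0.97 to -0.58. For the share, 4 alternatives turned the direction: the limit on q gave 0.51, the list-prefix block 0.013, full lists 0.54 and ranking by fold 0.42. With 10000 peaks per list it was -0.47 (exact permutation p = 0.0857), with a leave-one-out range from -0.21 to 0.091. For the density ratio, 10000 peaks per list gave -0.21, the flank before alone -0.054 and leave-one-out -0.13 to 0.15, while the unscaled p gave 0.86, full lists 0.64, the limit on q 0.63 and ranking by fold 0.55 (exact permutation p from 0.114 to 0.371). Same-numbered libraries were not treated as pairs in the main results. With the replicate number as a block, the density ratio was -0.056, the share -0.17 and peak number -0.89. Median fold was -0.35 within prefixes (exact permutation p = 0.0556, the smallest possible), -0.24 outside the block (exact permutation p = 0.2; within prefixes -0.32, p = 0.0556) and -0.37 to -0.27 in leave-one-out fits, whose smallest possible p is above 0.05. Width turned to 0.0029 in full lists and stayed between -0.32 and -0.13 in leave-one-out fits. Local background relative to the flanks was -0.075 with 10000 peaks and -0.50 in equal-length lists, and 0.46 to 1.14 in leave-one-out fits. The prefix difference (DB to JP) in share was -0.34 with 10000 peaks (exact permutation p = 0.2) and -0.70 in full lists (exact permutation p = 0.0571). It was -0.031 in the block alone and -0.60 to -0.44 in leave-one-out fits. The gap in overlap between pairs ran from -0.32, without WT replicate 1, to 4.08 percentage points.

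With 10000 peaks per list, 50% reciprocal overlap and ranking by fold, in that order, regions called in 4 or more libraries numbered 37, 24 and 29 in place of 107, regions called in every library 4, 2 and 3 in place of 22, and regions of all WT libraries alone 5, 5 and 1 in place of 3. The region of all Q111/+ libraries alone was lost (0) with 10000 peaks and in ranking by fold. Leave-one-out ranges of these counts were 81 to 90, 21 to 27, 4 to 12 and 1 to 4. Windows whose genotypes did not overlap made up 5.13% at 50 kb (2.22% in the genome) and 9.52% in full lists (4.39%), and those whose prefixes did not overlap 63.6% at 200 kb (24.3%) and 42.9% in full lists (22.7%). The limits lie in the small number of libraries, the unknown depth, the few fragments under peaks outside the block, and the lack of an annotation of the peaks' build.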
